A study of Caenorhabditis elegans with 2 samples.

Results

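Divergent protein-coding promoters are places where 2 protein-coding genes start close together and are read away from each other, the left one on the minus strand and the right one on the plus strand. Here 92 such places were found among the 5000 intervals of highest signal in a list of 30000 intervals called on both replicates of the F57C9.4 experiment pooled, which is 1.84% of the 5000. The intervals were sorted by the authors' signal value, and one was kept when its summit, the position of highest signal inside it, lay within 500 bp of the starts of both genes and no tRNA, snoRNA, snRNA or piRNA gene started within that distance. The members were thus chosen by the pooled signal and by their position, and their high signal and closeness to starts describe the choice. A start is the 5′ end of the gene as annotated by Ensembl release 115 on WBcel235, the same assembly as ce11. Of the other 4908 intervals, 1076 were one-sided promoters, with protein-coding starts on 1 strand only, 3354 had no protein-coding start in the window, 472 had a start of one of the 4 small RNA classes and 6 had starts on both strands that did not point away from each other.

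The study is a chromatin immunoprecipitation with sequencing (ChIP-seq) of F57C9.4 in whole Caenorhabditis elegans, with 1 group of 2 biological replicates, which the labels number 5 and 6. The worms were strain OP550, which carries unc-119(tm4063) III and the transgene wgIs550 for F57C9.4 with GFP-FLAG at its C-terminus, and both replicates were mixed-sex young adults taken 66 h after synchronisation as starved L1 larvae. Sonicated chromatin was pulled down through the GFP tag by antibody, and the labels name a control experiment only as possible, so the lists show the tagged transgene product averaged over all tissues, beside whatever product the untagged gene made. Read depth is unknown from these lists, and all of the Wilson 95% intervals given cover counting error over regions only.

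In the compact genome of C. elegans, neighbouring genes that point away from each other often share a short stretch of intergenic DNA, and a factor bound there can lie upstream of both genes. Many worm mRNAs lose their original 5′ end when a spliced leader is joined to them at an acceptor site that ends in AG, so an annotated start can lie downstream of where transcription began. Places that bind many factors at once are common at promoters of genes that all cells use, and ChIP-seq of tagged proteins often finds signal there.

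The stretch between the starts is shown for 4 members with short gaps that hold the summit and no annotated exon. They were picked, after their values were seen, to show how such gaps differ in base composition, and 3 of them carry a sequence word described later. Each is the ce11 plus strand, 5′ to 3′, from the base after the minus-strand start to the base before the plus-strand start, and the 21 capitals mark the summit and 10 bases on either side.
cux-7 to C07H6.2, chrIII:7520846-7521008, plus strand: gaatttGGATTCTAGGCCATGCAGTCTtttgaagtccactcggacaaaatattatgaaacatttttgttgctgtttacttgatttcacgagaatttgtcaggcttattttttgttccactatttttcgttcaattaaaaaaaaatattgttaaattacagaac
ears-2 to uncp-18, chrIV:390469-390559, plus strand: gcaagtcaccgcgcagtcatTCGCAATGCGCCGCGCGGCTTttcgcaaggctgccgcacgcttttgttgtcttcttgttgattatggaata
fbxb-85 to hex-3, chrIII:10848964-10849221, plus strand: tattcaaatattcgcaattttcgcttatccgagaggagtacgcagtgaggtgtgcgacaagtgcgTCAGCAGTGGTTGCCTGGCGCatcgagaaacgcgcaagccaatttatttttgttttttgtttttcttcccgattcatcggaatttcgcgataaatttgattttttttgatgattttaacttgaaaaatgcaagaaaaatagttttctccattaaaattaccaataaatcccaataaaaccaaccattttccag
Y75B8A.24 to Y75B8A.25, chrIII:12273753-12274039, plus strand: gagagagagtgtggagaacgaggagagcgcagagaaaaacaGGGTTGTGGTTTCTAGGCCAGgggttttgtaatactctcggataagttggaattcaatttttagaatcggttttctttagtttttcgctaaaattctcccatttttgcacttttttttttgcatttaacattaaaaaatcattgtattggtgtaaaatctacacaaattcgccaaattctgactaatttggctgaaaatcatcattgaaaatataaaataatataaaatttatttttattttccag
The gap of ears-2 and uncp-18 was 53.8% GC, against 30.1% for cux-7 and C07H6.2, 36.4% for fbxb-85 and hex-3, and 31.4% for Y75B8A.24 and Y75B8A.25. The 21 bases at the summit were 71.4% GC for ears-2 with uncp-18, 52.4% for cux-7 with C07H6.2, 66.7% for fbxb-85 with hex-3 and 57.1% for Y75B8A.24 with Y75B8A.25, each above its whole gap. Of the 8 members examined with such gaps, 1 went the other way: at F40F11.3 with mig-38, which is not printed, the summit bases were 38.1% GC and the gap 44.6%. The stretches before hex-3 and before Y75B8A.25 both ended in the letters ttttccag directly before the annotated start.

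Short sequence words also recurred near the summits, and some of their places are shown so that the shared letters on both sides of a word can be seen. For the word GAGAGGAGT, 6 of the 13 members that held it are printed, each in 41 bases on the strand that reads the word as written, with the word in capitals.
F01D4.5 to ced-5, chrIV:10483912-10483952, minus strand: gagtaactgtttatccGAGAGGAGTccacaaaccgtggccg
fbxb-85 to hex-3, chrIII:10848978-10849018, plus strand: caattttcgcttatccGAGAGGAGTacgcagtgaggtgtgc
C45G9.11 to C45G9.2, chrIII:5069004-5069044, minus strand: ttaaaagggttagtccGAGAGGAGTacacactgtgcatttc
C14B9.8 to mrpl-18, chrIII:8144746-8144786, plus strand: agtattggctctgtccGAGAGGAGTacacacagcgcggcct
C56A3.6 to cav-2, chrV:13556815-13556855, plus strand: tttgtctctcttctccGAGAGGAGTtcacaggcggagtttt
W02H5.16 to W02H5.19, chrV:2638718-2638758, minus strand: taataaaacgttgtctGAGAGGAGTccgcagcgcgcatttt
For the word TTCTAGGCC, 4 of its 10 members are printed in the same way.
rps-23 to dpm-3, chrIV:12391341-12391381, minus strand: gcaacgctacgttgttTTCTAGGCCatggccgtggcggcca
Y75B8A.24 to Y75B8A.25, chrIII:12273788-12273828, plus strand: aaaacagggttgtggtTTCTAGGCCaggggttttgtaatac
C56A3.6 to cav-2, chrV:13556838-13556878, plus strand: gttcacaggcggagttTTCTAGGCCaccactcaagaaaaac
col-71 to Y49F6B.2, chrII:3502806-3502846, plus strand: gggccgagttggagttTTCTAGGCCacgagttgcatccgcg
For the word CTGCGTCTC, 3 of its 8 members are printed.
F44E5.4 to F44E5.5, chrII:11759489-11759529, minus strand: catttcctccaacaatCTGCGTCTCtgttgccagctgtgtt
drr-2 to set-16, chrIII:13643763-13643803, minus strand: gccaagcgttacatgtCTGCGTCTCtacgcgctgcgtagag
mrps-7 to Y57G11C.3, chrIV:14767871-14767911, plus strand: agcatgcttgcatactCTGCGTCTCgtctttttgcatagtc
How often these words stood at members and elsewhere is given with the other sequence results.

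The 92 intervals stood at 90 different gene pairs with 180 genes, since wapl-1 with htz-1 and dnj-29 with ndua-2 had 2 intervals each. At 1 member, his-35 and his-41, another protein-coding gene also started in the window, and 10 members had the start of another kind of non-coding gene there. The pooled signal of the members ran from 35.7 to 160, with a median of 46.6, against a median of 42.4 for one-sided promoters. The q-value that the authors' caller gave ran from 0.00493 to 0.371, with a median of 0.0900, and 55 of the 92 were above 0.05. That count followed the pooled rank: members ranked 1008 or better were all below 0.05, and those ranked 1069 or worse were all above it. The share above 0.05 was not counted among the other intervals, so whether that of the members is high or low was not tested. The interval was 404 bp wide at 89 of the 92, wider than the gap between the starts at many members, and it covered both starts at 23, 1 start at 47 and neither start at 22.

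The strongest member was the pair of rpl-20, a ribosomal protein of the large subunit, and Y17G9B.5, at chrIV:4749998-4750139 on ce11. It ranked 11 in the pooled list with a signal of 160, and its signal was 85.6 in replicate 5, where it ranked 26, and 67.8 in replicate 6, where it ranked 15. The pair cux-7 and C07H6.2, at chrIII:7520660-7521063, ranked 13, with a signal of 107 and rank 9 in replicate 5 and a signal of 47.2 and rank 83 in replicate 6. The pair F44E5.4 and F44E5.5, both heat-shock protein genes, at chrII:11759355-11759594, ranked 14, with a signal of 111 and rank 8 in replicate 5 and a signal of 42.5 and rank 109 in replicate 6. Signals are on a scale of their own in each list, with a median over the list of 18.5 in replicate 5 and 12.3 in replicate 6, so ranks and not signals are set against each other.

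F44E5.4 and F44E5.5 were 98% identical over the first 500 bp of the genes, read from each start, against a median of 51.9% and a next highest value of 58.2% over the members. Reads from such near-identical copies may be placed in either, and the authors' handling of them is unknown. The interval, however, lay wholly between the starts, outside both of the compared stretches. Whether the DNA under it is also repeated was not tested. It is therefore uncertain whether read placement affected the value at this pair. Its summit lay 175 bp from the start of F44E5.4 and 176 bp from that of F44E5.5, at the middle of the gap of 351 bp.

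Below these 3 came F56G4.6 with wbp-4 at rank 17 (rank 18 in replicate 5 and 27 in replicate 6) and rpl-15, another large-subunit protein, with K11H12.8, at chrIV:654886-654992, at rank 20 (ranks 20 and 45). The pair of drr-2, a factor of translation initiation, and set-16, a histone methyltransferase, at chrIII:13643558-13643961, had rank 50 (ranks 55 and 124). These 3 pairs ranked within the best 124 of each replicate.

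The pair of rps-19, of the small ribosomal subunit, and hsr-9 had pooled rank 59, with rank 34 in replicate 5 and 553 in replicate 6. F01D4.5 with ced-5, which acts in the engulfment of dying cells, had pooled rank 101, with rank 95 in replicate 5 and 592 in replicate 6. The pair of cct-8, a subunit of the CCT chaperonin, and Y55F3AR.2 leaned the other way, with rank 352 in replicate 5 and 103 in replicate 6. The pairs gmps-1 with cap-2 (rank 457 in replicate 5 and 225 in replicate 6) and ska-1 with Y106G6H.16 (ranks 548 and 242) also leaned toward replicate 6. The widest split of the 12 strongest was at clsp-1 and eef-2, a gene of translation elongation, with rank 131 in replicate 5 and 2279 in replicate 6. All 12 were within rank 5000 in each replicate.

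**Figure D1:**
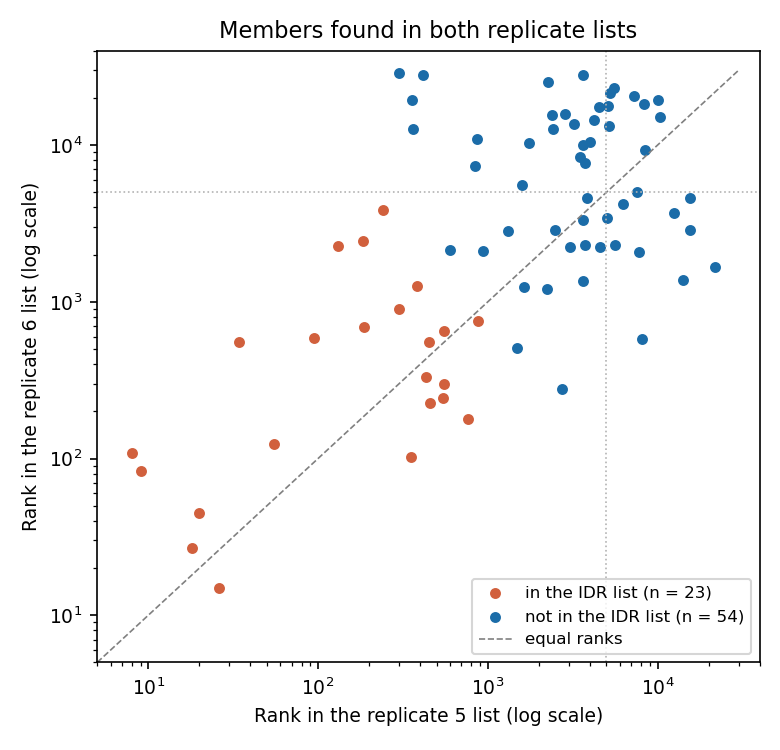
Rank of each of the 77 members found in both replicate lists, in replicate 5 (x, log scale) and in replicate 6 (y, log scale), with the 23 members of the IDR list in orange and the other 54 in blue, the dashed line marking equal ranks and the dotted lines rank 5000. The orange points lie together toward low ranks in both replicates, while the blue points spread widely.

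The authors' thresholded list, made by the irreproducible discovery rate (IDR) method that keeps calls ranked alike in replicates, held 23 of the 92 members (25%, Wilson 95% interval 17.3 to 34.7%), against 7.2% of all 5000 intervals and 7.99% of one-sided promoters. That list is the 360 best pooled intervals, so this share restates that members had higher pooled signals. Among the 5000 best intervals of both replicates were 37 of the 92 members (40.2%, 30.8 to 50.4%), against 22.3% of all 5000 and 24.2% of one-sided promoters (260 of 1076, 21.7 to 26.8%). Of the 472 intervals with a small RNA start, 197 (41.7%) were among the 5000 best of both replicates and 97 (20.6%) in the IDR list. Such shares were thus not particular to members. All 23 members in the IDR list were among the 37. Of the 69 members outside it, 14 were (20.3%), against 18.2% of the 990 one-sided promoters and 16.9% of the 4640 intervals outside it. Below rank 360 the members were therefore found in both replicates at a share close to that of the other intervals.

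Taken one replicate at a time, 65 of the 92 members (70.7%) were among the 5000 best intervals of replicate 5 and 51 (55.4%) among those of replicate 6, 28 in replicate 5 alone and 14 in replicate 6 alone, which leaves 13 in neither. All of these lists were part of what made the pooled list, so the shares are descriptive. A total of 77 members had an interval in the full list of both replicates, with 6 missing from the replicate 5 list and 9 from the replicate 6 list. Over those 77 the ranks differed by a median factor of 3.30, by less than a factor of 2 at 20 members and by more than a factor of 10 at 14. Across these 77 intervals of the same libraries, Spearman's rho between the 2 signals was 0.49, against 0.053 over 857 one-sided promoters. Over the 54 of them outside the IDR list rho was -0.065, against -0.19 for 773 one-sided promoters outside it. The pooled ranking itself shapes such values, since an interval low in 1 replicate enters the 5000 more readily if it is high in the other. This is a tendency and no strict rule, as the 13 members in neither replicate's 5000 best show.

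At some members the replicates ranked far apart, and these were singled out after their values were seen. The pair Y75B8A.24 and Y75B8A.25 ranked 300 in replicate 5 and 28812 in replicate 6. The pair of vdac-1, a channel of the outer mitochondrial membrane, and R05G6.5 ranked 418 in replicate 5 and 27981 in replicate 6. The pair of rps-23, of the small ribosomal subunit, and dpm-3 ranked 360 in replicate 5 and 19430 in replicate 6. In the other direction, ecps-1 with atx-2 ranked 227 in replicate 6 and had no interval in the replicate 5 list. At wapl-1 and htz-1, the gene of the histone variant H2A.Z, both pooled intervals fell in 1 interval of replicate 5, at rank 299, and the weaker of the 2 had none in replicate 6. The better of the 2 ranks was that of replicate 5 at 49 members and that of replicate 6 at 28.

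Moving down the pooled list, divergent promoters became rarer. They made up 6.39% of the intervals ranked 1 to 360 (23 of 360, 4.29 to 9.4%), 2.03% of ranks 361 to 1000, 1.73% of ranks 1001 to 2500 and 1.20% of ranks 2501 to 5000. Below the member limit the share was 0.960% of ranks 5001 to 10000, 0.920% of ranks 10001 to 20000 and 0.850% of ranks 20001 to 30000. One-sided promoters made up 23.9% of the first 360 and 18.2% of the last 10000, a smaller change as a ratio and a similar one in percentage points. Over the whole list 317 intervals met the position rule, of which the 92 members are the strongest.

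**Figure D2:**
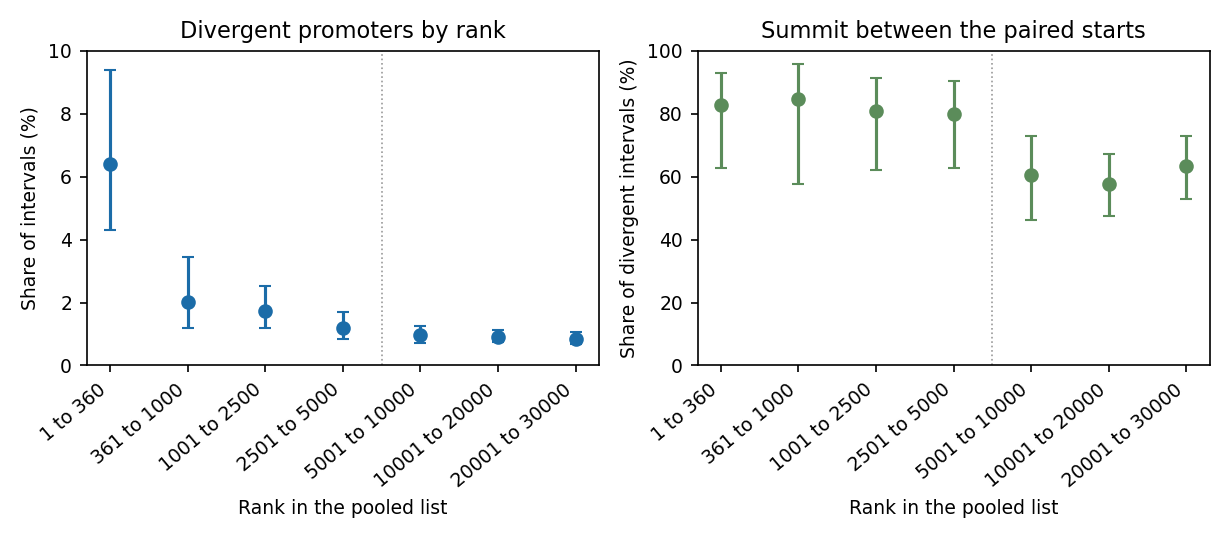
Left, the share of intervals that were divergent promoters in 7 ranges of rank in the pooled list; right, the share of those divergent intervals whose summit lay between the paired starts (points, shares in %; bars, Wilson 95% intervals; dotted line, the member limit at rank 5000). The left share is 6.39% in the first 360 ranks and 0.850% in the last 10000, and the right share is 80% or more in each range of the members and 57.6 to 63.5% in the ranges beyond them.

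At the member limit the values ran on without a step. The 3 members of lowest signal were C55A6.1 with C55A6.10 at 36.0, clec-206 with cysl-4 at 35.8 and rheb-1 with spk-1 at 35.7. The next intervals that met the position rule were elb-1 with Y41C4A.11 at 35.5, B0035.3 with B0035.22 at 35.4 and mib-1 with smc-3 at 35.3. At the distance limit, the farther start was 500 bp from the summit at ift-43 with mdt-26 and at C27C12.1 with C27C12.4, and 495 bp at hsp-6 with C37H5.5. Just past it, the farther start lay at 502 bp for H12C20.7 with nhr-68, at 506 bp for F56C11.3 with atm-1 and at 509 bp for Y39A1A.22 with mrpl-12.

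The summit lay between the 2 starts at 75 of the 92 members (81.5%, 72.4 to 88.1%). Below rank 5000 it lay between them at 136 of the 225 divergent intervals (60.4%, 53.9 to 66.6%), under the same position rule. Regions are not replicates, and no test was made. The rule itself places many summits there, since starts 500 bp or more apart leave no other place. Over the positions that the rule allows at each pair, the stretch between the starts made up a mean of 61.4% at the members and 56.0% at the weaker intervals. Where the starts were under 500 bp apart, the summit lay between them at 51 of 68 members (75%, 63.6 to 83.8%), against 94 of 183 weaker intervals (51.4%, 44.2 to 58.5%), and the allowed positions there gave 47.8% and 45.9%.

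**Figure D3:**
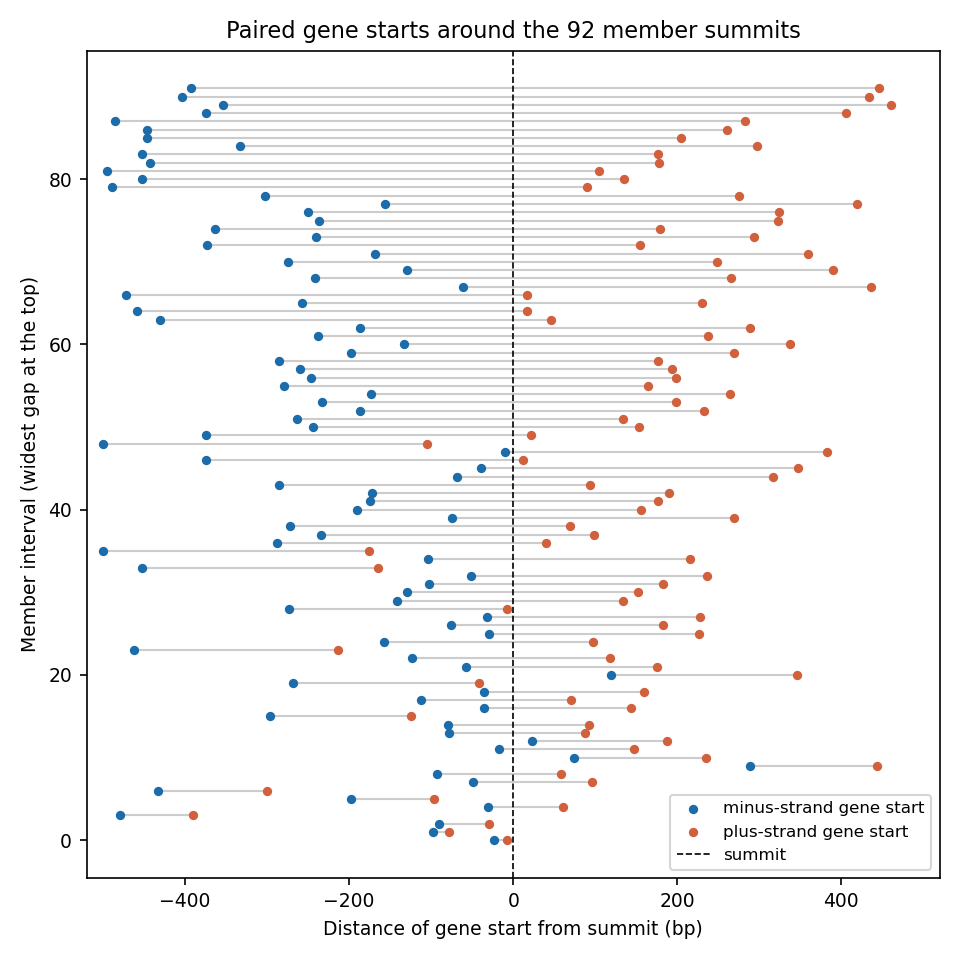
Each of the 92 members as 1 line, sorted by the distance between its starts, with the minus-strand start (blue) and the plus-strand start (orange) at their distance from the summit in bp (x). The dashed line marks the summit, which lies between the starts at 75 members and outside them at 17, mostly those with short gaps near the bottom.

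The starts of a member pair lay 15 to 839 bp apart, with a median of 386.5 bp. The summit was 8 to 404 bp from the nearer start, with a median of 129.5 bp, and a median of 277.5 bp from the farther one. The minus-strand start was the nearer at 42 members and the plus-strand start at 49, and at gmps-1 and cap-2, which code for an enzyme of GMP synthesis and an actin capping protein, the summit lay 238 bp from both. Of the 75 summits between the starts, 51 were in the central 50% of the gap. All 30 members with gaps of 401 to 600 bp and all 10 with wider gaps had the summit between the starts, as did 26 of 33 with gaps of 201 to 400 bp and 9 of 19 with gaps up to 200 bp.

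The 17 other summits lay past one of the starts, 13 to the right of the plus-strand start and 4 to the left of the minus-strand start, by a median of 105 bp and at most 390 bp. The summit was outside annotated genes at 70 members, in a coding exon at 7, in an untranslated exon at 6, in an intron at 4 and in the exon of a gene that codes for no protein at 5. The narrowest pair was F25H9.6 with F25H9.7, whose starts were 15 bp apart, and its summit lay 8 bp inside F25H9.7. At clsp-1 and eef-2 the summit lay 8 bp inside eef-2. At ift-43 and mdt-26, which codes for a subunit of Mediator, the summit lay in a coding exon of mdt-26, 105 bp from its start.

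Seen from the genes, 1745 pairs of neighbouring protein-coding genes pointed away from each other with starts up to 1000 bp apart. A member stood at 90 of them (5.16%, 4.21 to 6.30%), and any interval of the 30000 that met the position rule at 301 (17.2%). Of the 90, 19 were among the 248 pairs with gaps up to 200 bp (7.66%), 33 among the 474 with gaps of 201 to 400 bp (6.96%) and 28 among the 401 with gaps of 401 to 600 bp (6.98%). Of the wider pairs, 7 of 351 with gaps of 601 to 800 bp (1.99%) and 3 of 271 with gaps of 801 to 1000 bp (1.11%) had a member. The rule allows fewer summit positions as the gap widens, since the summit must lie within 500 bp of each start. Its part in this fall was not tested.

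The X chromosome had 4 members of its 894 intervals among the 5000 (0.447%), against 1.94 to 2.38% on the 5 autosomes. It also had only 80 close pairs, against 290 to 423 on each autosome. Counted over close pairs, members stood at 4 of 80 on X (5.00%, 1.96 to 12.2%) and at 4.38 to 6.55% on the autosomes, so the low number on X went with the low number of such pairs there.

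Of the 19 gene lists, that of the cytosolic ribosome gave the most genes at members. Of the 48 ribosomal protein genes that stood in close pairs, 11 had a member (22.9%), against 180 of all 3490 protein-coding genes in such pairs (5.16%). These were rpl-20, rpl-15, rps-19, rps-1, rpl-12, rpl-22, rps-23, rps-20, rps-15, rpl-5 and rpl-11.1, with pooled signals of 36.4 to 160 and a median of 68.2. At 6 of the 11 the interval was in the IDR list, and 7 were among the 5000 best intervals of both replicates. The lists were chosen with earlier results on these data known, in which ribosomal protein genes already stood out, so their count is not independent of those. Ribosomal protein genes also leaned toward one-sided promoters, which held 11 of all 81 on the list (13.6%), against 5.24% of all protein-coding genes. The leaning was thus not particular to members.

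At all 11 ribosomal pairs the summit lay between the starts, and the ribosomal gene was the nearer of the 2 genes at 6. The position rule left no other place at rpl-15, rps-1, rps-23, rps-15, rpl-5 and rpl-11.1. The starts of those pairs were 534 to 839 bp apart, and gaps that wide also make the distances to the starts longer. The distance from the summit to the ribosomal start was 10 to 446 bp, with a median of 264 bp, against a median of 195.5 bp over all 184 starts at members. The nearest was rpl-12, whose summit lay 10 bp from its start and 383 bp from that of lin-54, which codes for a DNA-binding subunit of the DREAM repressor complex. That pair ranked 874 in replicate 5 and 750 in replicate 6, and the pair of rps-1 with ifet-1 ranked 555 and 301, in that order.

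Chaperone genes stood at members at a similar share, 7 of 30 in close pairs (23.3%). These were cct-8 and cct-1, subunits of the CCT chaperonin, hsp-110 and hsp-6, heat-shock proteins of the cytosol and of mitochondria, and the J-domain genes dnj-29, dnj-19 and dnj-28. F44E5.4 and F44E5.5 carry names that this list did not cover. Signals ranged from 45.04 at cct-1 to 89.98 at cct-8 over the best interval of each gene. At hsp-110 the partner was rpn-3, a subunit of the proteasome lid, and their pair ranked 1477 in replicate 5 and 506 in replicate 6. One-sided promoters held 7 of all 67 chaperone genes on the list (10.4%), against 5.24% of all protein-coding genes.

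Of the chromatin regulators, 4 of 17 in close pairs had a member (23.5%). They were set-16, with a signal of 115.3, lin-53, a histone-binding protein, with 74.3, lin-54 with 68.9, and hda-11, a histone deacetylase, with 44.8. The pair of lin-53 and nra-2 ranked 431 in replicate 5 and 331 in replicate 6. One-sided promoters held 8 of all 81 chromatin regulators on the list (9.88%), against 5.24% of all protein-coding genes. On the lists for the mitochondrial ribosome, 3 of 25 genes had a member (mrps-7, mrpl-18 and mrpl-39), and for translation factors and tRNA synthetases 2 of 30 (eef-2 and ears-2, a glutamyl-tRNA synthetase). Of RNA polymerase, general factors and Mediator, 2 of 13 had a member (mdt-26 and taf-7.2), of the proteasome 2 of 20 (rpn-3 and rpn-6.1), of nuclear transport 2 of 20 (npp-27 and ima-1) and of collagens and cuticle genes 3 of 24 (bli-6, col-38 and col-71).

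The share of all genes in close pairs at members, 5.16%, is the background for short lists, where it amounts to few or no genes. Single genes stood at members from the lists for respiration (ucr-2.1, 1 of 19), the ubiquitin pathway (ubc-6, 1 of 18), nuclear hormone receptors (nhr-47, 1 of 18) and homeobox and other developmental regulators (ceh-38, 1 of 7). No gene was at a member from the lists for splicing (0 of 23), DNA replication, repair and cell cycle (0 of 31), vesicle traffic (0 of 24), mitochondrial import (0 of 1), neuropeptides (0 of 9) or chemoreceptors (0 of 145). Apart from chemoreceptors, these lists are too short for a count of 0 or 1 to stand apart from that background. The symbol patterns do not take in every gene of these processes. For example ify-1, the worm securin, holds back chromosome separation, and its pair with rpl-22 ranked 451 and 552 in replicates 5 and 6. Likewise ska-1 is of the spindle and kinetochore, and its pair with Y106G6H.16 ranked 548 and 242. In total 37 members had a gene on a list, and at none of them were both genes on the same list. Counted by gene, 40 of the 180 member genes were on a list, against 522 of the 3490 genes in close pairs. The lists did not cover his-35 with his-41 or F44E5.4 with F44E5.5, so these pairs of like genes could not count. How many pairs on the same list the background would give was not tested.

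The DNA around the summits had its own profile of base composition. Mean GC content in 20 bp bins was 47.8% in both bins next to the member summits, and fell to 32.0% in the bin centred 150 bp to the left and 31.1% in the one 150 bp to the right. At one-sided promoters it was 44.4% and 44.7% next to the summit and 38.0% and 38.1% at those distances. At the midpoints of the 1655 close pairs with no member the profile was flatter, with 34.6% and 34.8% at the centre, 33.6% in both bins at 50 bp and 35.0% and 34.5% at 150 bp. Over the 201 bp around the summit, the median GC content of members was 40.8%, with a middle range of 37.3 to 45.8%, against 41.3% for one-sided promoters and 42.8% for intervals with no protein-coding start. It was higher at the summit than 400 bp away at 61 of 92 members (66.3%), against 75.8% of one-sided promoters and 29.9% of the other close pairs.

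**Figure D4:**
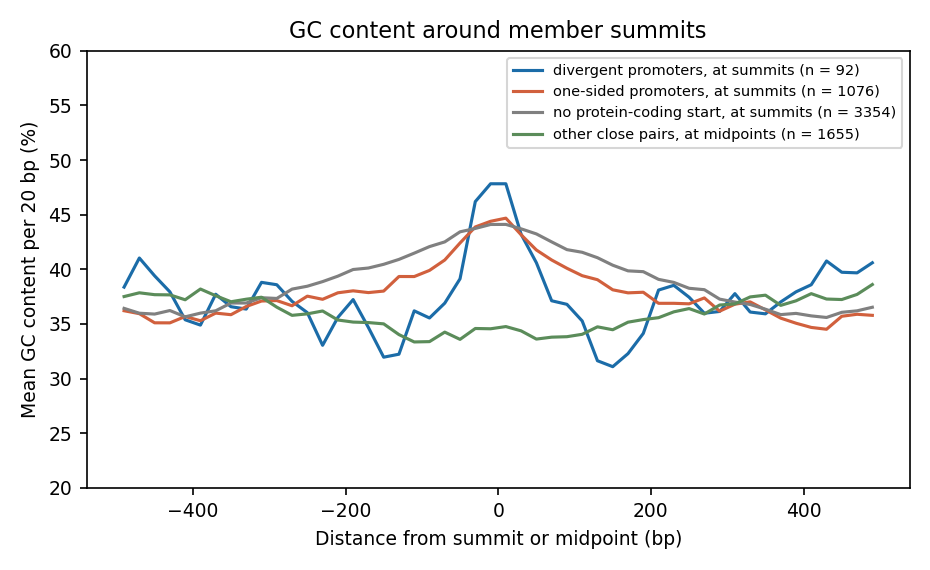
Mean GC content in 20 bp bins (y, in %) by distance from the summit, or from the midpoint for close pairs with no member (x, in bp), for the 92 members (blue), the 1076 one-sided promoters (orange), the 3354 intervals with no protein-coding start (grey) and the 1655 other close pairs (green). The blue line peaks at 47.8% and drops to 31.1% about 150 bp from the summit, where the orange and grey lines stay at 38.0% or more.

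The contrast with the other pairs was smaller when both were centred on the gap: at the midpoints of the members' own gaps the median was 37.6%, against 33.3% at those of the other close pairs. The ratio of observed to expected CpG was above 1 at 79 of 92 member summits (85.9%), with a median of 1.39, against 597 of 1076 one-sided promoters (55.5%), with a median of 1.05. At gap midpoints the medians were 1.29 for the member pairs and 1.19 for the other close pairs. GC content can also shift ChIP-seq read coverage, and its part in these signals was not tested.

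A set of 7 motifs was sought on both strands within 100 bp of the summit. TATAAA, the core of the TATA box, was present at 14 members (15.2%), against 15.5% of one-sided promoters and 28.5% of the midpoints of other close pairs. A run of 8 T, a feature of worm promoters, was present at 14 members (15.2%), against 14.6% and 23.7%. TTCGCG was present at 12 members (13.0%, 7.62 to 21.4%), against 7.90% and 7.43%, and at 12.4% of the 225 divergent intervals below rank 5000. At those 225 intervals, centred on summits as the members were, TATAAA stood at 15.6% and the run of 8 T at 15.1%. CCGCCC was at 9 members (9.78%), TGACGT at 7 (7.61%), GATAAG at 5 (5.43%) and CACGTG at 4 (4.35%), against 8.36%, 7.06%, 6.78% and 6.78% of one-sided promoters in that order.

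All 2080 words of 6 letters were then ranked by how much more often they stood within 50 bp of the member summits than 300 bp to either side. The first 5 were CTCCTC at 20.7% of members against 3.26% in the side windows; CCTAGA at 15.2% against 0.543%; GGCCTA at 16.3% against 1.63%; ACTCCT at 17.4% against 2.72%; and ACCGTA at 16.3% against 2.17%. At one-sided promoters the same words stood within 50 bp of 8.74%, 2.88%, 4.46%, 3.16% and 4.28% of summits. Several of these overlap one another in letters, so they were followed up as words of 9 letters, a step chosen after the 6-letter words had been seen. The words were picked for being common at the members and rare in their side windows, so their shares there, and any contrast with other regions, are set in part by that choice and serve as a description.

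The word GAGAGGAGT stood within 100 bp of 13 of the 92 member summits on either strand (14.1%, 8.45 to 22.7%), against 14 of 1076 one-sided promoters (1.30%), 12 of the 1655 midpoints of other close pairs (0.725%) and 3 of the 225 divergent intervals below rank 5000 (1.33%). The 13 copies lay a median of 43 bp from the summit. The shared letters ran past the word, as the printed windows show: all 13 copies had T at the third base before it and C at the second base after it, and 12 of the 13 had C directly before it. There were 694 copies in the whole genome, and 27 of the close pairs had a copy between the starts, 10 of them at a member, a count that the choice of the word at members raises.

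The word TTCTAGGCC stood at 10 members (10.9%, 6.01 to 18.9%), against 1.21% of one-sided promoters, 0.906% of the other close pairs and 1.78% of the 225 divergent intervals below rank 5000. Its copies lay a median of 9 bp from the summit, closer than those of the other 2 words, and in the gap of cux-7 and C07H6.2 printed above it stands inside the 21 capitals. All 10 copies were followed by A. The genome holds 3633 copies, and 33 of the close pairs had one between the starts, 9 of them at a member, a count raised by the choice of the word in the same way. The 4 members cux-7 with C07H6.2, ska-1 with Y106G6H.16, C56A3.6 with cav-2 and F26F4.9 with cee-1 held both words.

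The word CTGCGTCTC stood at 8 members (8.70%, 4.47 to 16.2%), against 3.81% of one-sided promoters (2.82 to 5.13%), 2.05% of the other close pairs and 2.67% of the 225 divergent intervals below rank 5000. The word's interval at members thus overlapped that at one-sided promoters. Its copies lay a median of 25.5 bp from the summit, and they included F44E5.4 with F44E5.5 and drr-2 with set-16. It never stood at a member together with either of the other 2 words. In all, 27 of the 92 members held at least 1 of the 3 words, and of the 23 members in the IDR list 5 held GAGAGGAGT, 3 TTCTAGGCC and 2 CTGCGTCTC.

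**Figure D5:**
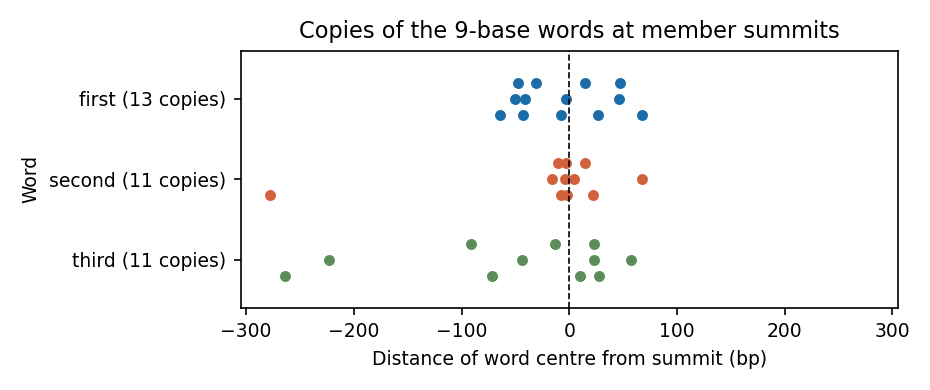
Distance from the member summit (x, in bp, within 300 bp) of each copy of the 9-letter words, in the order in which they are described: the first (13 copies), the second (11 copies) and the third (11 copies); points are spread up and down for view only. The copies of the first word lie within 68 bp of the summit, and 9 of the 11 copies of the second lie within 50 bp of it.

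The letters before the starts also differed between member genes and others. AG directly before the annotated start, as a splice acceptor has, was found at 70 of the 180 member genes (38.9%, 32.1 to 46.2%), against 927 of 3310 genes in the other close pairs (28.0%, 26.5 to 29.6%) and 27.6% of all protein-coding genes. At 20 of the 184 starts at members the annotated start was the start of the coding sequence, so no untranslated leader is annotated there and the true start may lie farther upstream. How often this holds at other genes was not counted.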

How the data were processed

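The authors deposited interval lists in narrowPeak format for replicate 5, replicate 6, both pooled and the IDR result, and the ce11 lists were used. The deposited signal value was set by the authors' caller and served to rank intervals within a list. The deposited −log10 q-value was turned into a q-value to describe members. The deposited summit offset, which fits no other unit, gave the summit position. For the aligner, the caller, their versions and the kind of control file, nothing was given in the sources used here. Each list before IDR held 30000 intervals.

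The position rule was applied with Python 3.11.15, numpy 2.4.6, pandas 2.3.3, scipy 1.17.1 and Biopython 1.88, and tested on simulated data. Gene starts came from Ensembl release 115, and sequences from the RefSeq copy of the same assembly. A member's rank in a replicate is that of the interval of that list which holds the pooled summit. There was 1 group, and regions are not replicates, so no test was made. Shares carry Wilson 95% intervals. Motifs and GC content were read within 100 bp of a summit.

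The members, gene lists and motifs were chosen with earlier results of these data known. Named were the 12 members of highest pooled signal, the 12 with the best worse rank over the replicates, up to 4 per gene list and those next to the limits. Other members are named where a group of genes or a sequence is listed in full, and were chosen after their values were seen. The alternatives were other windows, list lengths, start definitions and non-coding gene filters, and each replicate left out. Lists on ce10 were not used here.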

Additional observations from a re-analysis of the deposited data

How the results depend on the processing

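The number of members was 37 with a window of 250 bp, 199 with 1000 bp, 140 over the first 10000 intervals and 23 in the IDR list alone, against 92. With a single replicate's list in place of the pooled one it was 79 to 82, and 49 of the 90 member pairs were found again without replicate 5 and 63 without replicate 6. The share of summits between the starts was 59.3% with 1000 bp, and 75.9 to 85.4% with a replicate left out. The share of close pairs with a member was 2.12% with 250 bp, 9.63% with 1000 bp, 3.55% over the first 2500 intervals, 7.79% over the first 10000 and 1.32% in the IDR list alone, and 4.47 to 4.70% with a replicate left out. The share of members among the 5000 best of both replicates was 56.5% over the first 2500, 26.4% over the first 10000 and 100% in the IDR list alone, and 43.0 to 45.1% with a replicate left out. A wider window or longer list admits more intervals by construction. The share of close pairs is over the same 1745 pairs in each setting, so it restates how many pairs had a member. The members among the 5000 best of both replicates were 37 of 92 and also 37 of the 140 over the first 10000. With a replicate left out, the members already stood high in the list of the other, which meets part of that criterion in advance. For the share of summits between the starts, the cause was not tested. Transcript starts gave 103 members, no filter on small RNA starts 100, and barring every non-coding start 82.

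No paired analysis was possible because there was 1 group of 2 replicates and no second condition. Intervals 404 bp wide limit how well a summit places binding between close starts, and no read counts were used, so the error of a single signal value is unknown.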
